A study of Drosophila melanogaster with 18 samples.

Results

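The Lcp genes encode larval cuticle proteins, and the 10 genes described here are those of the 17562 counted genes whose FlyBase symbol was Lcp1, Lcp2, Lcp3, Lcp4, Lcp65Ab1, Lcp65Ab2, Lcp65Ac, Lcp65Af, Lcp65Ag1 or Lcp65Ag2. They were picked out by symbol, with earlier results of these data known. RNA was taken from whole third-instar larvae of Drosophila melanogaster, the last larval stage, in 6 groups of 3 libraries each. The WT was the w1118 isogenic strain, and each of the 5 deletion strains, written 21D.del, 82Eb.del, 95Ca.del, 95Cb.del and 95Cc.del as in the labels, lacked a single U1 snRNA gene. U1 snRNA is the RNA of the spliceosome that pairs with the start of an intron. The deletions were made with CRISPR/Cas9, took out the promoter, the transcript and the terminator together, and the lines were then crossed repeatedly to the WT. Each deletion is thus 1 selected line, and all the strains carry the w1118 background of the WT. The comparisons ask how the loss of 1 U1 gene at a time changed the RNA level of these genes. Nothing in the sources says whether the replicates came from separate cultures, so that p-values measure the spread between these libraries, which may be technical.

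The larval body wall is covered by a cuticle of chitin fibres in a matrix of proteins, which the epidermis secretes anew at each moult and goes on adding to while the larva grows. Lcp proteins belong to the large family of cuticle proteins that bind chitin through a shared domain, the Rebers and Riddiford consensus. Their genes are small, stand in clusters and are switched on and off with the hormone-driven moulting cycle, so that each stage has its own set of cuticle proteins. Lcp1 to Lcp4 are the classical larval cuticle proteins extracted from third-instar larvae.

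The 10 genes lay in 2 clusters, given here in dm6 coordinates, which were the same in the count table and in the annotation. Lcp1 (FBgn0002531, 8430115 to 8431243), Lcp2 (FBgn0002533, 8433797 to 8434785), Lcp3 (FBgn0002534, 8435310 to 8436095) and Lcp4 (FBgn0002535, 8437647 to 8438495) stood side by side within 8.381 kb of chromosome arm 2R, at 44D, with Lcp1 and Lcp2 on the minus strand and Lcp3 and Lcp4 on the plus strand. The other 6 genes stood within 16.971 kb of chromosome arm 3L, at 65A. Lcp65Ag2 (FBgn0020637, 6132990 to 6133593), Lcp65Ag1 (FBgn0020638, 6134697 to 6135274) and Lcp65Af (FBgn0020639, 6136215 to 6136791) were on the minus strand. Lcp65Ac (FBgn0020642, 6144819 to 6145393), Lcp65Ab2 (FBgn0020643, 6146674 to 6147089) and Lcp65Ab1 (FBgn0020644, 6149548 to 6149960) were on the plus strand. Each gene of the 44D cluster held 1 intron, of 56 to 64 bp, and so did Lcp65Ac, Lcp65Af, Lcp65Ag1 and Lcp65Ag2, while Lcp65Ab1 and Lcp65Ab2 held none. No other annotated gene overlapped any of the 10. Lcp65Ab1 and Lcp65Ab2 are close copies of each other, as are Lcp65Ag1, Lcp65Ag2 and their neighbour Lcp65Ag3, and how the counting treated reads that fit more than 1 copy is not given in the sources used here, so that the split of counts within these sets is uncertain.

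Library totals lay between 11919121 and 21776613 counts. The level of a gene is given as CPM, its counts scaled to the library total, and a count of 0 allows up to 0.138 CPM in the deepest and 0.252 CPM in the shallowest library, counting error only. The deleted U1 genes could hardly be checked from these libraries, since each had only 4 to 11 counts over the 3 WT libraries together and 0 in its own deletion strain in 4 of the 5 strains. The exception was 95Ca.del, where the library labelled 95Ca.del replicate 2 held 5 counts on the gene labelled as deleted and the other 2 libraries held 0. In a principal component analysis of the 500 most variable genes, the first component held 52.1% of the variance and set 1 library of each group away from the other 2. It was replicate 2 in WT, 21D.del and 82Eb.del and replicate 1 in 95Ca.del, 95Cb.del and 95Cc.del. These 6 libraries, here said to lie apart, had a summed level of 10 midgut enzyme genes of 168 to 2247 CPM, against 2669 to 17297 CPM in the other 12. Their sum over 10 late ecdysone-response genes was 1317 to 3466 CPM, against 972 to 2465 CPM. A list of 5 matched adult and embryonic genes summed to 0.294 to 26.8 CPM in any library. The part of these markers in the Lcp values was not tested.

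The 4 genes of the 44D cluster were among the most abundant RNAs of the larva and the 65A genes were not. Per kb of exon, the median level over the 18 libraries was 6889 CPM for Lcp1, 4480 CPM for Lcp4, 3710 CPM for Lcp3 and 2490 CPM for Lcp2, which ranked 6, 14, 18 and 26 among all genes. At 65A, Lcp65Ac stood first at 141 CPM per kb (rank 416). Lcp65Ag1 stood at 8.30 CPM per kb, Lcp65Ab1 at 6.47, Lcp65Ab2 at 1.55, Lcp65Af at 1.41 and Lcp65Ag2 at 0.537. The counts behind these values ranged from 2343883 over all libraries for Lcp1 down to 101 for Lcp65Ag2, so that the levels of Lcp65Ab2, Lcp65Af and Lcp65Ag2 rested on few reads, with 0 counts in 1 library for Lcp65Ab2 and in 2 libraries for Lcp65Ag2.

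Lcp1, the most abundant of the 10, was spread more widely within a group than between groups. Its level in replicates 1, 2 and 3 was 14027, 393 and 10656 CPM in the WT, 12676, 182 and 15514 CPM in 21D.del, and 12797, 883 and 10692 CPM in 82Eb.del. It was 1874, 7064 and 7643 CPM in 95Ca.del, 1078, 6923 and 5957 CPM in 95Cb.del, and 3985, 7611 and 7718 CPM in 95Cc.del. In every group the low library was the one that lay apart, and the highest library of a group exceeded its lowest by 1.94-fold in 95Cc.del and by 85.1-fold in 21D.del. All 5 strains overlapped with the WT.

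Lcp2 and Lcp65Ac had their lowest library in the same place in all 6 groups. Lcp2, the neighbour of Lcp1 on the same strand, stood at 133 CPM in replicate 2 of the WT, against 4350 and 3531 CPM in replicates 1 and 3. Lcp65Ac was spread further, at 3.27 CPM against 88.4 and 86.6 CPM in the WT and at 0.294 CPM against 59.6 and 88.7 CPM in 21D.del, a 301-fold span within 1 group. For Lcp3 and Lcp4 the lowest library was the one that lay apart in 4 groups, and for Lcp65Ag1 in none. WT replicate 2 held the highest Lcp65Ag1 level of its group, at 9.73 CPM, beside the lowest Lcp1 level.

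**Figure D1:**
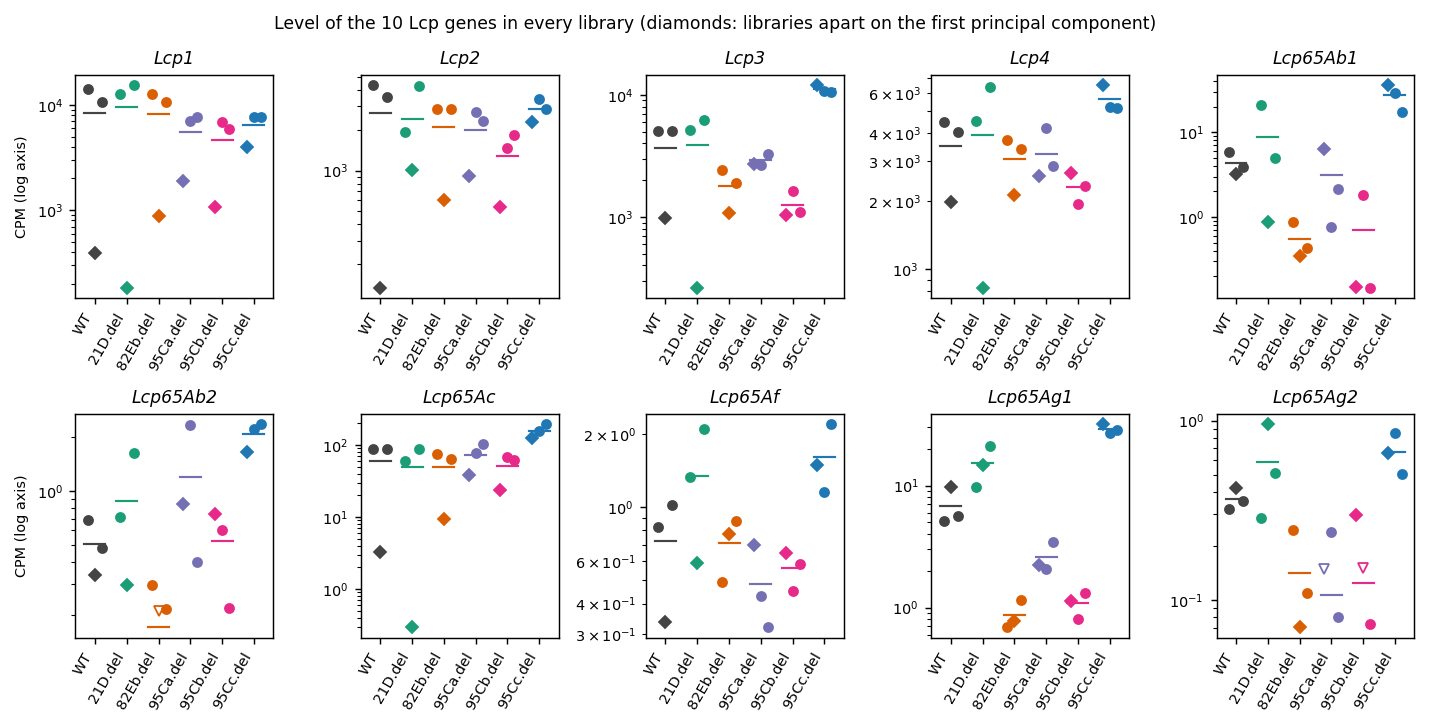
Level of each Lcp gene in CPM (log axis, scaled separately in each panel) in the 18 libraries, by group, with replicates 1, 2 and 3 from left to right and the group mean as a line. Diamonds are the 6 libraries set away from their groups by the first component, and open triangles are counts of 0 drawn at the level that a count of 0 allows. Lcp1, Lcp2 and Lcp65Ac had their lowest library at a diamond in all 6 groups, while Lcp65Ag1 separated the groups, from 0.688 to 1.15 CPM in 82Eb.del up to 26.7 to 31.9 CPM in 95Cc.del.

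How the variance of each gene divided between groups and replicates is a description that uses all 18 libraries. On the log2 CPM scale, differences between groups held 2.56% of the variance of Lcp1, 11% of Lcp2, 24.0% of Lcp4 and 24.2% of Lcp65Ac, against a median of 40.9% over the tested genes. They held 46.3% for Lcp3, 54.4% for Lcp65Af, 62.1% for Lcp65Ab2, 69.9% for Lcp65Ag2, 75.8% for Lcp65Ab1 and 96.7% for Lcp65Ag1. The pooled SD within groups was 2.37 for Lcp1 and 2.36 for Lcp65Ac, larger than for 99.4% of the tested genes in each case, and 0.41 for Lcp65Ag1, near the median of 0.39. Without the 6 libraries that lay apart, the share between groups was 91.8% for Lcp1 and 96.2% for Lcp65Ag1, and the median gene stood at 72.2%. Leaving out the lowest library of each group lowers the spread of Lcp1 within groups by construction, and only 2 libraries then remain in each.

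**Figure D2:**
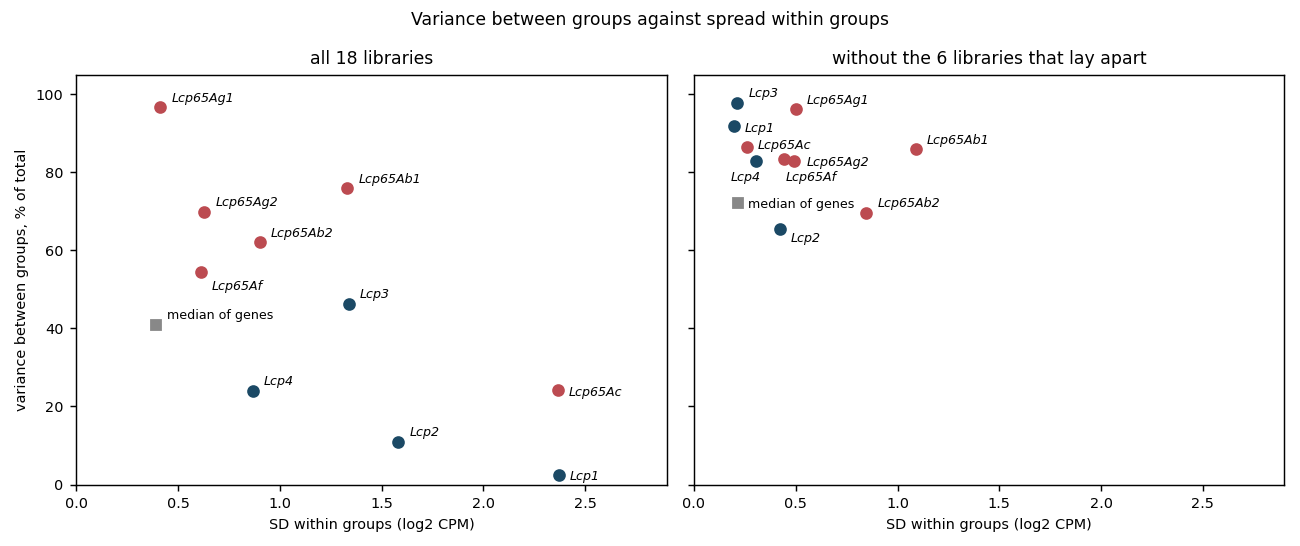
Share of the variance of log2 CPM that lay between the 6 groups (percent, vertical) against the pooled SD within groups (log2 CPM, horizontal), for the Lcp genes of the 44D cluster (blue), those of the 65A cluster (red) and the median of all tested genes (grey square), with all 18 libraries (left) and without the 6 that lay apart (right). Lcp1 and Lcp65Ac lay at the right end with all libraries, at SDs of 2.37 and 2.36, and Lcp65Ag1 at the upper left, with 96.7% between groups.

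The deviations of the libraries from their group means moved together in part of the family. Over the 18 libraries, the deviations of log2 CPM had a correlation of 0.978 between Lcp1 and Lcp65Ac, genes on different chromosome arms, of 0.982 between Lcp3 and Lcp65Ac and of 0.883 between Lcp1 and Lcp2. It was 0.120 between Lcp1 and Lcp65Ag1 and 0.074 between Lcp3 and Lcp65Ag1. Between the means of the 6 groups, Lcp65Ag1 had a correlation of 0.961 with Lcp65Ab1 and of 0.939 with Lcp65Ag2, and of 0.227 with Lcp1. The points share libraries and scaling factors, the low library of each group weighs heavily in the deviations, and close copies may share reads.

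The 10 genes together took 0.229% to 3.25% of the counts of a library, nearly all of it from Lcp1 to Lcp4. Lcp3 was the most abundant of the 4 in all 3 libraries of 95Cc.del, and Lcp1 was in the 10 libraries of the other groups that did not lie apart. Lcp3 held 48.7%, 39.8% and 40.2% of the Lcp1 to Lcp4 counts in replicates 1, 2 and 3 of 95Cc.del, and 9.77% to 33.8% in the 15 other libraries. The counts of Lcp1 were 0.329 to 0.729 times those of Lcp3 in 95Cc.del. In the other 15 libraries this ratio had a median of 2.44 and ranged from 0.404 to 5.65, and its 4 values below 1 came from libraries that lay apart. The ratio of Lcp3 to its neighbour Lcp4 was 1.86 to 2.06 in 95Cc.del and 0.316 to 1.25 elsewhere, so that the ranges did not overlap. No test was made of these ratios.

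**Figure D3:**
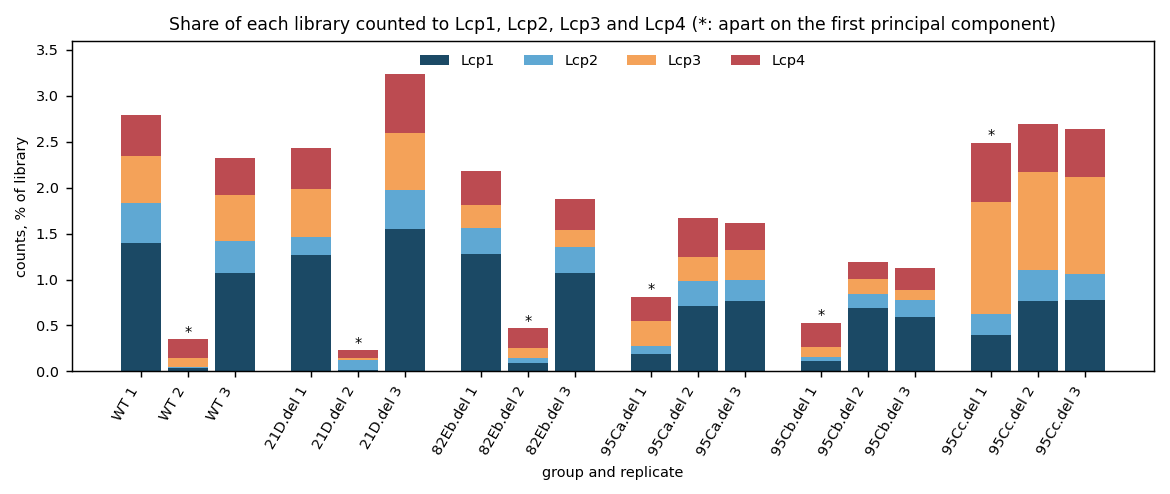
Percent of all counts of a library (vertical, from 0) that fell on Lcp1, Lcp2, Lcp3 and Lcp4, stacked, in each of the 18 libraries by group and replicate, with the libraries that lay apart marked by a star. The starred libraries of WT, 21D.del and 82Eb.del were the lowest bars, and Lcp3 held 39.8% to 48.7% of the bar in 95Cc.del against 9.77% to 33.8% elsewhere.

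Each strain was compared with the WT over the 3 libraries of each. A gene was called where its absolute log2 fold change was above 1 and its adjusted p below 0.05, by edgeR's quasi-likelihood test with Benjamini-Hochberg adjustment over all genes tested. The 5 comparisons share the 3 WT libraries, so that a WT library that is high or low moves all of them together. Of the 10 genes, 9 were tested in each strain except 82Eb.del, where 8 were. Lcp65Ag2 was under the filter on low counts in all 5 comparisons and Lcp65Ab2 in 82Eb.del.

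In 21D.del, none of the 9 genes tested was called, where 1.01% of all genes tested were. With edgeR, 1 of the 9, Lcp65Ag1, had an unadjusted p below 0.05, and DESeq2 called none. None of the 9 lay wholly above or below the WT, where 13.8% of all genes tested did. Lcp65Ag1 was at 9.71, 14.6 and 21.2 CPM in 21D.del against 5.14, 9.73 and 5.67 CPM in the WT. The lowest 21D.del library lay just under the highest WT library, so that the groups overlapped, although within each replicate number 21D.del was the higher of the pair. The log2 fold change was 1.29 (SE 0.39, adjusted p = 0.339, edgeR), 1.2 with adjusted p = 0.0898 with the replicate number as a block, and 1.58 with adjusted p = 0.0759 over replicates 1 and 3. In the fit of all 6 groups together it was called (adjusted p = 0.0330, edgeR). Lcp65Ab1 ranged from 0.883 to 20.6 CPM among the 21D.del libraries, a 23.3-fold span that covered the whole range of the WT. For Lcp1 the 95% interval of the log2 fold change ran from -3.67 to 4.14, so that neither a large rise nor a large fall was detectable here.

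In 82Eb.del, 2 of the 8 genes tested were called, both lower than in the WT, where 3.8% of all genes tested were called lower and 4.53% in either direction. Lcp65Ag1 was at 0.688, 0.772 and 1.15 CPM against 5.14, 9.73 and 5.67 CPM in the WT, a log2 fold change of -2.87 (SE 0.32, adjusted p = 0.00512, edgeR). Every 82Eb.del library lay below every WT library. The chitin-binding protein gene Lcp65Ab1 was at 0.885, 0.351 and 0.437 CPM against 5.83, 3.19 and 3.94 CPM, again with no overlap, and its log2 fold change was -2.89 (SE 0.51, adjusted p = 0.0271, edgeR). These levels came from 11 to 21 counts per library for Lcp65Ag1 and 5 to 18 for Lcp65Ab1. Lcp65Ab1 passed the filter on low counts in the 3 WT libraries, where it was higher, and 1 strain library. Its place among the 2 called is therefore a description only. Its adjusted p exceeded 0.05 without WT replicate 1 (0.0997), WT replicate 3 (0.104), 82Eb.del replicate 2 (0.0535) or 82Eb.del replicate 3 (0.146), and in the fit of all 6 groups (0.135, edgeR).

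Among all 8 tested genes, these 2 were also the ones whose 82Eb.del and WT libraries did not overlap, where 9.76% of all genes tested lay wholly below the WT. The 2 untested genes, Lcp65Ab2 and Lcp65Ag2, lay below the WT as well, at 0 to 0.295 and 0.0701 to 0.246 CPM against 0.336 to 0.689 and 0.321 to 0.419 CPM. Most of these levels are at or near the limit that a count of 0 allows. All 8 log2 fold changes were negative, and those of Lcp1, Lcp2, Lcp4, Lcp65Ac and Lcp65Af were between -0.35 and -0.03 with adjusted p of 0.903 to 0.995 (edgeR). The direction of these 5 was not stable, since each turned positive when 1 library or another was left out. With the replicate number as a block, where same-numbered libraries correlated, Lcp1 and Lcp2 stood at 0.37 and 0.39, and Lcp1 was at 0.01 with DESeq2 and 0.0067 with RLE size factors. Lcp3 was at 2415, 1083 and 1893 CPM against 5078, 974 and 5016 CPM, and overlapped with the WT only through WT replicate 2. Its log2 fold change was -1.05 (SE 0.74, adjusted p = 0.524, edgeR), and -1.20 with adjusted p = 6.51e-05 without replicate 2 of both groups, where it was called. Among all genes, 1254 of 12447 tested were called in that fit, against 563 of 12423 with all libraries. The call gained by Lcp3 thus cannot be read as particular to it.

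In 95Ca.del, which includes the library labelled 95Ca.del replicate 2 described above, none of the 9 genes tested was called, where 2.75% of all genes tested were. With edgeR, 1 of the 9 had an unadjusted p below 0.05, and DESeq2 called 1. Both were Lcp65Ag1, at 2.24, 2.06 and 3.44 CPM against 5.14, 9.73 and 5.67 CPM in the WT. Every 95Ca.del library lay below every WT library, and the log2 fold change was -1.30 (SE 0.31, adjusted p = 0.0953 with edgeR and 0.0125 with DESeq2). Without the library labelled 95Ca.del replicate 2 it was -1.23 with adjusted p = 0.251, and in the fit of all 6 groups it was called (adjusted p = 0.0326, edgeR). The other tested genes overlapped with the WT. Lcp65Ag1 was thus 1 of 9 tested genes wholly below the WT, where 10.6% of all genes tested were.

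In 95Cb.del, 1 of the 9 genes tested was called, lower than in the WT, where 5.96% of all genes tested were called lower and 7.39% in either direction. It was Lcp65Ag1, at 1.14, 0.804 and 1.31 CPM, with a log2 fold change of -2.68 (SE 0.30, adjusted p = 0.00273, edgeR) and no overlap with the WT. Lcp65Ab1 was at 0.149, 1.81 and 0.146 CPM, from 3, 36 and 2 counts, and lay wholly below the WT too. Its log2 fold change was -2.64 (SE 0.85, adjusted p = 0.102 with edgeR and 0.00809 with DESeq2), and without 95Cb.del replicate 2 it was -4.93 with adjusted p = 0.0135. Of all genes tested, 14.3% lay wholly below the WT, and 2 of the 9 Lcp genes did. Here too Lcp65Ab1 passed the filter on low counts in the 3 WT libraries, where it was higher, and 1 strain library. Its place among the 2 and its adjusted p are therefore a description only.

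The abundant 44D genes in 95Cb.del depended on the libraries that entered the fit. Lcp3 was at 1036, 1623 and 1096 CPM, all below WT replicates 1 and 3 and above WT replicate 2 at 974 CPM. Its log2 fold change was -1.69 (SE 0.66, adjusted p = 0.160, edgeR), and DESeq2 called it with adjusted p = 0.0288. Without the libraries that lay apart, the log2 fold changes of Lcp1, Lcp2, Lcp3 and Lcp4 were -1.04, -1.35, -2.0 and -1.08 with adjusted p of 0.00850, 0.00240, 0.000320 and 0.00431 (edgeR). All 4 were then called, and 6 of the Lcp genes in all. Among all genes, 1151 of 12475 tested were called in that fit, against 924 of 12500 with all libraries. Over all 3 replicates the values were -0.96, -1.18, -1.69 and -0.70. Over replicates 1 and 3, which keep the library that lay apart in 95Cb.del, Lcp3 was called of the 4 (log2 fold change -2.41, adjusted p = 0.00682, edgeR).

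In 95Cc.del, 3 of the 9 genes tested were called, all higher than in the WT, where 2.07% of all genes tested were called higher and 4.8% in either direction. Lcp65Ag1 was at 31.9, 26.7 and 28.3 CPM against 5.14, 9.73 and 5.67 CPM in the WT, a log2 fold change of 2.15 (SE 0.18, adjusted p = 0.00141, edgeR). Lcp65Ab1 was at 36.2, 29.2 and 17.3 CPM against 5.83, 3.19 and 3.94 CPM, a log2 fold change of 2.63 (SE 0.37, adjusted p = 0.00912, edgeR). For both genes the lowest 95Cc.del library lay well above the highest WT library. Without WT replicate 3, the adjusted p of Lcp65Ab1 was 0.0514, and in the fit of all 6 groups it was 0.145. Lcp65Ab2 was at 1.65, 2.24 and 2.38 CPM against 0.689, 0.336 and 0.477 CPM, and its log2 fold change was 1.99 (SE 0.39, adjusted p = 0.0282, edgeR). It passed the filter on low counts through the 3 strain libraries, where it was higher, and 1 WT library. Its place among the 3 called is therefore a description only, and it may share reads with Lcp65Ab1. Lcp65Ab2 was called in 1 of the 6 fits that left out a single library. In the fit of all 6 groups its adjusted p was 0.177 (edgeR).

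Other members also lay above the WT in 95Cc.del, although none of them passed the test. Wholly above the WT were 7 of the 9 tested genes, the 3 called ones among them, where 12.8% of all genes tested were, and the untested Lcp65Ag2 was too. The 7 include Lcp65Ab2, which passed the filter through the strain libraries and may share reads with Lcp65Ab1, so that its place among them is a description only. Lcp3 was at 12121, 10718 and 10582 CPM against 5078, 974 and 5016 CPM in the WT, and every strain library lay far above every WT library. The log2 fold change was 1.52 (SE 0.65, adjusted p = 0.253, edgeR), 1.04 with adjusted p = 0.00147 without WT replicate 2, and 1.03 with adjusted p = 2.5e-05 without the libraries that lay apart, and it was called in both. How many of all genes were called in these fits is not given here, so that the calls cannot be read as particular to Lcp3. Lcp4 was at 6521, 5200 and 5171 CPM against 4443, 1982 and 4028 CPM, and its log2 fold change of 0.65 (SE 0.40, adjusted p = 0.436, edgeR) was under the fold threshold. Lcp65Ac was at 124, 155 and 196 CPM against 88.4, 3.27 and 86.6 CPM, with a log2 fold change of 1.34 (SE 1.0, adjusted p = 0.551, edgeR). Lcp65Af was at 1.48, 1.15 and 2.19 CPM against 0.827, 0.336 and 1.01 CPM, with a log2 fold change of 1.08 (SE 0.49, adjusted p = 0.284, edgeR).

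Lcp1 and Lcp2 overlapped with the WT. Lcp1 in 95Cc.del lay within the range of the WT, and Lcp2 was at 2283, 3432 and 2870 CPM against 4350, 133 and 3531 CPM. Their log2 fold changes were -0.45 (SE 1.08) and 0.02 (SE 1.04), with adjusted p of 0.886 and 0.998 (edgeR). Without the libraries that lay apart they were -0.74 and -0.38, with adjusted p of 0.00206 and 0.0444, both under the fold threshold. Within 1 cluster of 8.381 kb, Lcp3 and Lcp4 thus stood above the WT in every 95Cc.del library while Lcp1 and Lcp2 did not.

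Markers of other tissues differed between 95Cc.del and the other groups. The sum of 7 muscle genes was 44657 to 52555 CPM in 95Cc.del, 17038 to 23576 CPM in the WT and at most 33679 CPM in any other library. The sum of 4 salivary gland genes that precede the glue genes was 161 to 232 CPM in 95Cc.del and 34.2 to 57.6 CPM in the WT, with up to 153 CPM elsewhere. The sum of 6 glue genes was 10540 to 13742 CPM in 95Cc.del and 12321 to 20234 CPM in the WT. None of the defining genes of these 3 lists was at 0 in 95Cc.del. The sum of 8 epidermal and tracheal genes, the tissue that makes cuticle, was 1653 to 1846 CPM in 95Cc.del, 1404 to 1710 CPM in the WT and 2921 to 3151 CPM in 95Cb.del. The tanning gene ple is on this list and by itself had a mean of 394 CPM in the WT and 1761 CPM in 95Cb.del. The higher sum in 95Cb.del therefore cannot be read as a change of the tissue. The sum of 10 late ecdysone-response genes also differed between strains. It was 1055 to 1710 CPM in the WT and, with no overlap, 2160 to 3466 CPM in 21D.del, 1918 to 2813 CPM in 82Eb.del and 2426 to 3137 CPM in 95Cb.del. It was 1665 to 2228 CPM in 95Ca.del and 972 to 1317 CPM in 95Cc.del, which both overlapped with the WT, and 1 to 3 of the 10 genes were at 0 in at least 1 library of each group. In 82Eb.del and 95Cb.del the sum of 6 glue genes was 22707 to 31370 and 24609 to 26383 CPM. Fewer cells of a type and less RNA per cell cannot be told apart in RNA of whole larvae, and the part of these markers in the Lcp values was not tested.

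**Figure D4:**
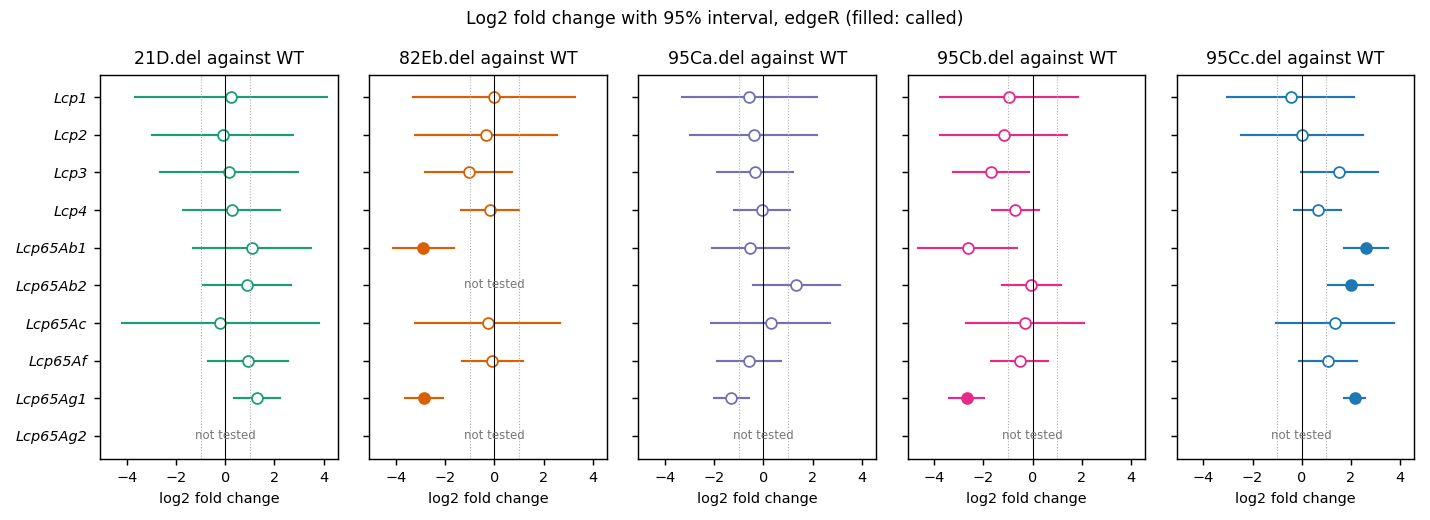
Log2 fold change of each Lcp gene in each deletion strain against the WT (horizontal, points) with its 95% interval (lines), from edgeR, 3 libraries per group. Filled points were called, dotted lines mark the fold threshold, and genes under the filter on low counts are written as not tested. Lcp65Ag1 was called at -2.87 in 82Eb.del, -2.68 in 95Cb.del and 2.15 in 95Cc.del, and the intervals of Lcp1 spanned 0 in all 5 strains.

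The deletion strains were then compared with each other in 1 fit of all 18 libraries, in which the WT libraries drop out of the difference. Of 100 combinations of a gene and a pair of strains, 12 were called (edgeR), where 4.37% of the combinations of all genes were. The 12 include Lcp65Ag2 between 95Cb.del and 95Cc.del and Lcp65Ab2 between 82Eb.del and 95Cc.del. Lcp65Ag2 passed the filter on low counts only through groups where it was high. Lcp65Ab2 was under the cutoff in every 82Eb.del library and passed through groups where it was higher. Both calls are therefore a description only. Of the 12, 5 were between 95Cb.del and 95Cc.del, where 13.5% of all genes were called, 3 between 82Eb.del and 95Cc.del, where 7.57% were, and 1 between 95Ca.del and 95Cc.del, where 6.03% were. Lcp65Ag1 supplied 6 of the 12. It was higher in 21D.del than in 82Eb.del by 4.17 (SE 0.38, adjusted p = 1.16e-05), than in 95Ca.del by 2.59 (SE 0.35, adjusted p = 0.000628) and than in 95Cb.del by 3.93 (SE 0.37, adjusted p = 1.44e-05) on the log2 scale (edgeR). In these 3 pairs of strains 2.28%, 1.5% and 3.36% of all genes were called. It was lower than in 95Cc.del by -5.02 in 82Eb.del, -3.45 in 95Ca.del and -4.79 in 95Cb.del on the log2 scale, with adjusted p of 1.35e-06, 3.74e-05 and 9.73e-07 (edgeR).

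Ordered by level, Lcp65Ag1 went from 82Eb.del (0.869 ± 0.244 CPM, SD, n = 3) over 95Cb.del (1.09 ± 0.259 CPM), 95Ca.del (2.58 ± 0.748 CPM), WT (6.85 ± 2.51 CPM) and 21D.del (15.2 ± 5.76 CPM) to 95Cc.del (29.0 ± 2.68 CPM). Neighbours whose libraries overlapped were 82Eb.del with 95Cb.del and the WT with 21D.del. The difference between 21D.del and 95Cc.del was -0.85 (SE 0.32) on the log2 scale with adjusted p = 0.113, that between 82Eb.del and 95Cb.del was -0.23 (SE 0.39) and that between 95Ca.del and 95Cb.del was 1.34 (SE 0.37) with adjusted p = 0.103 (edgeR). None of these 3 was called.

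The remaining 6 calls between strains all involved 95Cc.del as the higher strain. Lcp65Ab1 differed from 82Eb.del and 95Cb.del by -5.52 (SE 1.13, adjusted p = 0.00443) and -5.27 (SE 1.11, adjusted p = 0.00345), and Lcp65Ab2 from 82Eb.del by -3.42 (SE 0.86, adjusted p = 0.0159, edgeR). In the comparisons with the WT, 0 libraries of 82Eb.del and 3 of 95Cc.del were above the cutoff for Lcp65Ab2. Its call is given as a description only. Lcp3 was higher in 95Cc.del than in 95Cb.del, with a difference of -3.20 (SE 0.88, adjusted p = 0.0174, edgeR). Its levels there did not overlap, at 10582 to 12121 against 1036 to 1623 CPM. The low-count genes Lcp65Af and Lcp65Ag2 also differed between 95Cb.del and 95Cc.del, by -1.57 (adjusted p = 0.0427) and -2.38 (adjusted p = 0.0478, edgeR). Lcp65Ag2 passed the filter on low counts in this fit only through groups where it was high. In the comparisons with the WT, 2 libraries of 95Cc.del and 1 of 21D.del were above the cutoff for it and 0 of the other groups, and its call is given as a description only. Lcp1, Lcp2, Lcp4 and Lcp65Ac were called in none of the 10 pairs, with the lowest adjusted p at 0.640, 0.440, 0.132 and 0.400. Between 95Cb.del and 95Cc.del, Lcp4 (1938 to 2666 against 5171 to 6521 CPM) and Lcp65Ac (23.9 to 68.9 against 124 to 196 CPM) did not overlap. Their differences there were -1.33 (95% interval -2.60 to -0.05) and -1.65 (-4.34 to 1.03) on the log2 scale. How many of all genes did not overlap in this pair was not counted, so that the lack of overlap of Lcp3, Lcp4 and Lcp65Ac is a description only. Without the libraries that lay apart, 29 combinations were called in place of 12. The share of all genes called between strains was not recorded for that fit, so that the rise cannot be read as particular to the Lcp genes.

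The neighbours of the 65A genes moved in the same strains in part. Of 17 counted genes in and around the cluster, Lcp65Ag3, the third copy of the Lcp65Ag set, was called lower in 82Eb.del (-3.37, adjusted p = 0.0161) and 95Cb.del (-3.17, adjusted p = 0.0118, edgeR) but had a log2 fold change of -0.01 in 95Cc.del. Lcp65Ae was called lower in the same strains, at -3.85 and -3.01, and higher in 95Cc.del at 1.49 (adjusted p = 0.0470, edgeR). In 82Eb.del and 95Cb.del, Lcp65Ag3 reached at most 0.281 and 0.292 CPM and Lcp65Ae at most 0.210 and 0.364 CPM. Both genes passed the filter on low counts there only through the WT, where they were higher. Their calls in 82Eb.del and 95Cb.del are therefore a description only. Lcp65Aa was called lower in 95Cb.del (-2.60) and in no other strain. Cpr65Av, next to Lcp65Ae, was called lower in 95Cb.del (-2.74) and also in 95Cc.del (-1.62, adjusted p = 0.0151, edgeR), the opposite direction to Lcp65Ag1 there. Lcp65Ad, next to Lcp65Ac, had log2 fold changes between -0.38 and 0.84 in the 5 strains and was called in none.

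**Figure D5:**
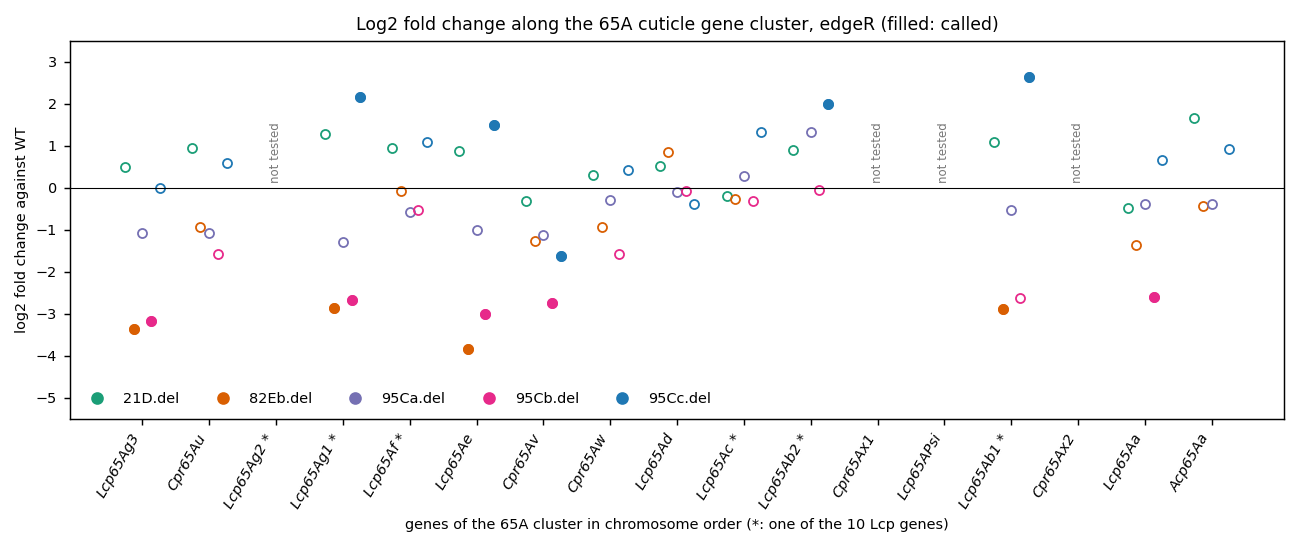
Log2 fold change against the WT (vertical) of the 17 counted genes in and around the 65A cuticle cluster, in chromosome order from left to right, in each of the 5 deletion strains (colours), from edgeR. Filled points were called and stars mark the Lcp genes described here. Lcp65Ag1 and Lcp65Ae were called lower in 82Eb.del and 95Cb.del and higher in 95Cc.del, while Cpr65Av was called lower in 95Cb.del (-2.74) and 95Cc.del (-1.62). Lcp65Ag3 and Lcp65Ae passed the filter on low counts in 82Eb.del and 95Cb.del only through the WT, so that their calls there are a description only.

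Other genes of the cuticle pathway were read from lists, also drawn up with earlier results known, in the same fits. Of 17 other Lcp and 65A cuticle genes, 16 matched the table and 10 or 11 were tested in a strain. In 21D.del edgeR and DESeq2 called 0, with 3 at an unadjusted p below 0.05. In 82Eb.del 3 were called lower, Lcp9 (-1.83), Lcp65Ag3 and Lcp65Ae. In 95Ca.del 1 was, Cpr65Ay (-2.42). In 95Cb.del 6 of 10 were called lower, from Lcp9 (-2.32) and Lcp65Aa to Lcp65Ag3 and Cpr65Ay (-3.79). In 82Eb.del and 95Cb.del, Lcp65Ag3 and Lcp65Ae passed the filter on low counts only through the WT, where they were higher. So did Cpr65Ay in 95Cb.del, at up to 0.496 CPM. Its lowest library in 95Ca.del, at 0.479 CPM, lay under the cutoff of 0.542 CPM. These numbers of genes called lower are therefore a description only. In 95Cc.del Lcp65Ae and Cpr65Ay (1.33) were called higher and Cpr65Av lower. Of all genes tested, 3.8% were called lower in 82Eb.del, 2.51% in 95Ca.del, 5.96% in 95Cb.del and 2.73% in 95Cc.del. In 95Cc.del 2.07% were called higher. The median log2 fold change of this list was -1.28 in 82Eb.del, -2.46 in 95Cb.del and 0.58 in 95Cc.del. For the 10 Lcp genes it was -0.31, -0.96 and 1.34 over those tested, and for all genes tested it was between -0.02 and 0.03 in all 5 strains.

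No gene that builds chitin passed the test. Of 21 matched genes for chitin synthesis, assembly and turnover, such as the chitin synthase gene kkv, all were tested and none was called by edgeR in any strain, with 1 to 7 of them at an unadjusted p below 0.05 and list medians between -0.29 and 0.20. DESeq2 called 0 of them as well. None of the 4 tested genes of the Ccp84A cluster, a further group of cuticle protein genes, was called in any strain, by edgeR or DESeq2 (0 each). At an unadjusted p below 0.05 there was 1, in 82Eb.del, where their median log2 fold change was -2.73. Of 10 prepupal and pupal cuticle genes, 7 or 8 were tested. Cpr78Cc was called lower in 82Eb.del (-2.0) and 95Cb.del (-4.03) and higher in 95Cc.del (1.97). In 95Cb.del Cpr49Ac was higher (1.10) and Cpr49Ah (-1.47) and Cpr49Ae (-2.41) were lower. Among all genes tested in 95Cb.del, 5.96% were called lower and 1.43% higher.

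Of all genes tested, 0.733% were called higher in 82Eb.del, 0.241% in 95Ca.del and 1.43% in 95Cb.del. Of 6 tested genes of cuticle hardening and pigment, 3 were called higher and 1 lower in 95Cb.del. The gene ple, which encodes tyrosine hydroxylase, was higher (2.10, adjusted p = 0.00145), as were b (2.56, adjusted p = 0.0177) and e (1.58, adjusted p = 0.00909), which act in the making and use of beta-alanine for tanning, while stw was lower (-1.02, edgeR). In 95Cc.del e was lower (-1.40, adjusted p = 0.0141, edgeR), and in the other 3 strains edgeR called 0, with 2 of the 6 at an unadjusted p below 0.05 in each and 2, 0 and 1 called by DESeq2 in 21D.del, 82Eb.del and 95Ca.del. Of 16 hormone-response regulators, all tested, 4 were called higher and 1 lower in 95Cb.del, with Hr3 (2.37) and Blimp-1 (1.48) at the upper end and Eip93F (1.31) and ftz-f1 (-1.22) at the lower. Blimp-1 was also higher in 82Eb.del (1.05) and Eip78C in 95Ca.del (1.14), and edgeR called 0 in 21D.del and 95Cc.del, with 8 and 6 at an unadjusted p below 0.05 and 2 and 0 called by DESeq2. These genes respond to the moulting hormone ecdysone around the end of larval life, and Blimp-1 and ftz-f1 act in the timing of that response.

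Finally, the genes whose level followed that of each cluster most closely over the 18 libraries were sought among 11600 genes with a mean above 1 CPM. For the mean log2 CPM of Lcp1 to Lcp4 they were ND-B14, obst-B, ATPsynO, CG42813 and COX7A, with Pearson correlations of 0.966 to 0.962. ND-B14, ATPsynO and COX7A encode parts of the mitochondrial respiratory chain and ATP synthase, and obst-B encodes a chitin-binding protein. Their lowest levels were 8.24, 13.5 and 16.5 CPM for ND-B14, obst-B and ATPsynO, against medians of 34.3, 51.0 and 185 CPM. For the mean of the 6 genes at 65A they were Gpdh1, CG13705, Nha2, exp and CG10953, with correlations of 0.951 to 0.929. Gpdh1 encodes glycerol-3-phosphate dehydrogenase. The 2 sets of 5 genes had no gene in common. Short genes as a class were compared in the same libraries. The median deviation from the group mean of 2517 genes with at most 1065 bp of exon, minus that of 9090 longer genes, was -0.003 to 0.062 there and -0.040 to 0.049 on the log2 scale in the other 12 libraries. Genes of this length held 10.2% to 14.6% of all counts in the libraries that lay apart and 13.7% to 20.5% in the other 12. This share includes the 10 Lcp genes themselves, which took 0.229% to 3.25% of a library, so that part of the difference is their own. The part of gene length in the Lcp values was not tested.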

How the data were processed

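RNA-seq counts per gene were available for 18 libraries, 3 from each of 6 groups, with no count column left unused (0). The counts deposited by the authors were whole numbers per gene, not normalised. Reads were trimmed (Trimmomatic 0.39 and cutadapt 1.15 in the submitters' processing notes), aligned to dm6 with HISAT2 and counted with featureCounts. The settings for strand and for reads that fit several genes are not given in the sources used here. Groups came from the sample labels.

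Counts were analysed in R 4.3.3 with edgeR 4.0.16 (limma 3.58.1): genes with low counts were removed with filterByExpr (at least 10 counts, 15 in total), libraries were scaled with TMM, and strains were compared with the WT by the quasi-likelihood test, with all genes tested adjusted together by the Benjamini-Hochberg method. A gene was called at an absolute log2 fold change above 1 and adjusted p below 0.05. The SE was derived from the log2 fold change and its F statistic. The study's own tool was DESeq2 (version 1.42.0 here), kept as an alternative. Differences between strains came from 1 fit of the 6 groups. CPM in the text divides by library totals, and log2 CPM uses TMM factors and a prior count of 2. Depth was 11919121 to 21776613 counts per library, and a count of 0 was read as allowing up to 3 counts, counting error only. No pair of libraries of a group agreed within sampling noise. The fits were tested on simulated counts.

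The 10 genes, the other lists and the library exclusions were chosen with earlier results of these data known. All 10 genes are named. From other lists at most 4 called genes per strain are named, those with the largest and smallest fold changes, besides chromosome neighbours in the 65A cluster and the 5 genes most correlated with each cluster (mean above 1 CPM).

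Replicate numbers were checked for pairing by the correlation of same-numbered libraries' deviations from their group means. It was 0.700 to 0.860 between WT and 21D.del and 0.710 to 0.870 between WT and 82Eb.del, above 0.1 for all 3 numbers, where replicate 2 lay apart in all 3 groups. In the other strains 1 of 3 numbers passed 0.1. Alternatives were DESeq2, RLE factors, library totals, the Lcp genes left out of the scaling, no filter, the joint fit, the replicate block, subsets of the libraries, summed close copies, and the adjusted p alone.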

Additional observations from a re-analysis of the deposited data

Results flagged for a closer look

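The effects of 2 deletions on the same gene differed, by the test between strains in the joint fit (edgeR), for 12 combinations. For Lcp65Ag1 the log2 difference was 4.17 for 21D.del minus 82Eb.del, 2.59 for 21D.del minus 95Ca.del and 3.93 for 21D.del minus 95Cb.del. It was -5.02 for 82Eb.del minus 95Cc.del, -3.45 for 95Ca.del minus 95Cc.del and -4.79 for 95Cb.del minus 95Cc.del.

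For Lcp65Ab1 it was -5.52 for 82Eb.del minus 95Cc.del and -5.27 for 95Cb.del minus 95Cc.del, and for Lcp65Ab2 it was -3.42 for 82Eb.del minus 95Cc.del. Between 95Cb.del and 95Cc.del it was -3.20 for Lcp3, -1.57 for Lcp65Af and -2.38 for Lcp65Ag2. The last of these passed the filter on low counts only through groups where it was high and rested on few reads, with 0 counts in 1 of the 95Cb.del libraries. Lcp65Ab2 was under the cutoff in every 82Eb.del library, so that both calls are a description only.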

How the results depend on the processing

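Of 704 values recomputed under another setting, 603 kept their direction and their side of the threshold, 15 lost the call, 20 gained it and 66 changed sign, 0 of these among the 6 called log2 fold changes. With 3 libraries a group and 1 of them apart, the 44D genes and Lcp65Ac had wide intervals, and low counts limited Lcp65Ab2, Lcp65Af and Lcp65Ag2. Leaving out the libraries that lay apart lowers the spread by construction. Other scalings moved the median of all genes by at most 0.0698 on the log2 scale. The cause of the changes below was not tested.

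The number of Lcp genes called was 2 in 82Eb.del, 1 in 95Cb.del, 3 in 95Cc.del, 0 in 21D.del and 95Ca.del, and 12 of the strain combinations. With DESeq2 it was 1 in 95Ca.del, 3 in 95Cb.del and 21 combinations. The joint fit called 1 in each of 21D.del, 82Eb.del, 95Ca.del and 95Cc.del, which was Lcp65Ag1 each time. Over replicates 1 and 3 it was 3 in 95Cb.del and 29 combinations, and without the libraries that lay apart 6 in 95Cb.del and 29 combinations, the latter chosen after seeing the data. With close copies summed, each sum counted under both names, it was 4 in 82Eb.del and 2 in 95Cb.del. Leaving out 1 library at a time gave 0 to 0 in 21D.del and 95Ca.del, 1 to 2 in 82Eb.del, 1 to 3 in 95Cb.del, 1 to 4 in 95Cc.del and 9 to 21 combinations. Among all genes, edgeR called 924 in 95Cb.del with all libraries, 914 over replicates 1 and 3 and 1151 without the libraries that lay apart, and DESeq2 called 1139. For the combinations, the number of all genes called was recorded for the main fit only, so that changes in their count cannot be read as particular to the Lcp genes.

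With the replicate number as a block, 0, 2, 0, 1 and 2 genes were called in 21D.del, 82Eb.del, 95Ca.del, 95Cb.del and 95Cc.del and 16 combinations. The call lost was Lcp65Ab2 in 95Cc.del (adjusted p = 0.148, edgeR), where the numbers do not pair the libraries. The block turned the log2 fold changes of Lcp1, Lcp2, Lcp3 and Lcp4 in 21D.del to -0.17, 0.68, -0.43 and -0.12, of Lcp1 and Lcp2 in 82Eb.del to 0.37 and 0.39, of Lcp2 in 95Ca.del to 0.038, of Lcp65Ac in 95Cb.del to 0.16 and of Lcp1 in 95Cc.del to 0.25.

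Other sign changes were of Lcp1 in 82Eb.del to 0.013 with DESeq2 and 0.0067 with RLE factors, and of Lcp65Ab2 in 95Cb.del to 0.0043 with DESeq2, 0.0038 with RLE factors, 0.059 with library totals and 0.018 with the Lcp genes left out of the scaling. In 95Ca.del, Lcp65Ab2 turned to -0.0053 over replicates 1 and 3 and -0.17 with copies summed, and Lcp65Ac to -0.40 over replicates 1 and 3. Lcp2 in 95Cc.del turned to -0.69 over replicates 1 and 3 and -0.38 without the libraries that lay apart. Leaving out 1 library at a time turned the sign of log2 fold changes that were not called. Their ranges were in 21D.del -0.42 to 0.84 for Lcp1, -0.96 to 0.44 for Lcp2, -0.46 to 0.70 for Lcp3, -0.40 to 0.76 for Lcp4, -0.40 to 1.63 for Lcp65Ab1, -0.0076 to 1.30 for Lcp65Ab2 and -1.02 to 0.38 for Lcp65Ac. They were in 82Eb.del -0.58 to 0.58 for Lcp1, -0.90 to 0.21 for Lcp2, -0.50 to 0.12 for Lcp4, -0.83 to 0.24 for Lcp65Ac and -0.44 to 0.25 for Lcp65Af. They were in 95Ca.del -1.14 to 0.021 for Lcp1, -0.97 to 0.14 for Lcp2, -0.42 to 0.19 for Lcp4 and -0.27 to 0.70 for Lcp65Ac. They were in 95Cb.del -0.30 to 0.38 for Lcp65Ab2 and -0.89 to 0.17 for Lcp65Ac. They were in 95Cc.del -1.02 to 0.16 for Lcp1 and -0.55 to 0.57 for Lcp2.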
